A study of Mus musculus with 24 samples.

Results

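Macrophages that received a glucocorticoid and LPS together for 4 h were set against untreated macrophages, to ask which genes stood at the untreated level and which stood away from it. The comparison used the 3 dexamethasone plus LPS samples and the 3 untreated samples of that time point, chosen by the column names of the gene count table, 6 of the 24 samples of the series. The cells were bone marrow-derived macrophages, grown from marrow of the femur and tibia of wild-type C57BL/6J mice of 8 to 12 weeks in medium with L929 supernatant as the source of M-CSF. All samples shared this genotype and culture. The treated cells received 100 nM dexamethasone with 100 ng of LPS, in a volume that the labels do not give. Samples given LPS alone or dexamethasone alone for 4 h, 3 each, serve below as side values, and the untreated cells received neither agent. The labels do not say whether the 3 samples of a group came from 3 mice or from 1 culture, so the p-values rest on the spread among these libraries, which may be technical.

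LPS, a component of the outer membrane of Gram-negative bacteria, is sensed on macrophages by TLR4 with CD14 and MD-2. The receptor signals through MyD88 to NF-kB and MAP kinases, which drive cytokine genes, and through TRIF to IRF3 and interferon beta, which in turn drives antiviral genes. Dexamethasone binds the glucocorticoid receptor, which activates some genes from its binding sites on DNA and represses many inflammatory genes. In macrophages it is known for induction of Tsc22d3 (GILZ), Fkbp5 and Dusp1.

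The treated libraries held 20639067 to 23401854 counts and the untreated libraries 18326206 to 27498535 counts. Genes that LPS alone raised at least 2-fold took 44 to 45.6% of the counts in the treated libraries and 14.2 to 14.4% in the untreated libraries, and the TMM scaling factors were 0.79 to 0.823 in treated and 1.166 to 1.184 in untreated libraries. Without these factors, on library size only, log2 fold changes shifted by a median of -0.55, so the calls below are relative to the TMM scale. Of 51 named genes at baseline, 35 lost that call on library size only, among them Errfi1 (log2 fold change -0.49), Coro2a (-0.65) and Rnf144b (-0.56), while Klf6, Zyx, Creb5 and Klhl6 kept it. The 10 macrophage markers summed to 21200 to 21900 CPM in treated cells and 17000 to 19000 CPM in untreated cells, with none at 0. CPM are counts scaled to the TMM-adjusted library total. Of the 10 markers, 6 were called higher, 4 of them at least 2-fold, and 3 were called lower. Csf1r and Lyz2 were the 2 at baseline, within 1.5-fold of untreated. They lost that call on library size only, at log2 fold changes of -0.73 and -0.67. The shares of all genes tested were 33.7% higher, 36.5% lower and 23.9% at baseline. Markers of neutrophils summed to 240 to 294 CPM against 66.1 to 87.9 CPM, with Ly6g at 0 counts in both groups. Markers of stromal and endothelial cells summed to 115 to 124 CPM against 14.6 to 21 CPM, with Col3a1 at 0 counts in both groups and most of the treated sum from Pdgfrb, at 89.6 to 102.2 CPM. Dendritic cell markers summed to 15.1 to 20.3 CPM against 5.89 to 8.49 CPM, lymphocyte markers to 5.45 to 8.05 CPM against 9.91 to 11.6 CPM, and mast cell markers to 1.99 to 5.75 CPM against 3.64 to 4.62 CPM. Their part in the results was not tested. In bulk samples such as these, fewer cells of a type and less RNA per cell cannot be told apart.

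Of 55357 genes in the table, 14985 had enough counts to be tested. Of these, 5053 (33.7%) were higher and 5474 (36.5%) were lower in dexamethasone plus LPS than in untreated cells, by edgeR's quasi-likelihood test at a Benjamini-Hochberg adjusted p of 0.05. On library size only the split was 2710 higher and 8905 lower. At least 2-fold away from untreated were 2397 genes (16%) on the high side and 2877 (19.2%) on the low side. A gene was counted as at baseline only where a further pair of one-sided tests placed its difference from untreated under 1.5-fold, since a missed threshold does not show a return. This held for 3583 genes (23.9%), of which 1909 also differed from untreated by a small called amount. Another 2784 genes were neither called nor shown to be at baseline. Their median level was 0.383 CPM, against 49.6 CPM for genes at baseline, so many of them had few counts. Abundant genes could be undetermined too, such as Cd74 at means of 816.5 CPM in treated and 709 CPM in untreated cells. Why each gene was undetermined was not tested. The median absolute log2 fold change was 0.72 over all genes tested.

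The genes that LPS alone had moved were counted first, which re-uses the same 3 untreated samples in both comparisons. LPS alone raised 2630 genes (17.6%) at least 2-fold and lowered 3249 (21.7%) at least 2-fold. With dexamethasone present, 1958 of the 2630 LPS-induced genes were still at least 2-fold higher than in untreated cells, 343 were higher by less than 2-fold and 66 were at baseline. A further 17 were at least 2-fold below untreated, 15 were below by less than 2-fold and 231 were undetermined. Of the 3249 LPS-repressed genes, 2187 were still at least 2-fold lower, 571 were lower by less than 2-fold and 107 were at baseline. Another 29 were at least 2-fold above untreated, 12 were above by less than 2-fold and 343 were undetermined. The shares at baseline, 2.51% of LPS-induced and 3.29% of LPS-repressed genes, stood beside 23.9% of all genes tested. The genes were chosen by their LPS change, so these shares are a description and not a test.

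**Figure D1:**
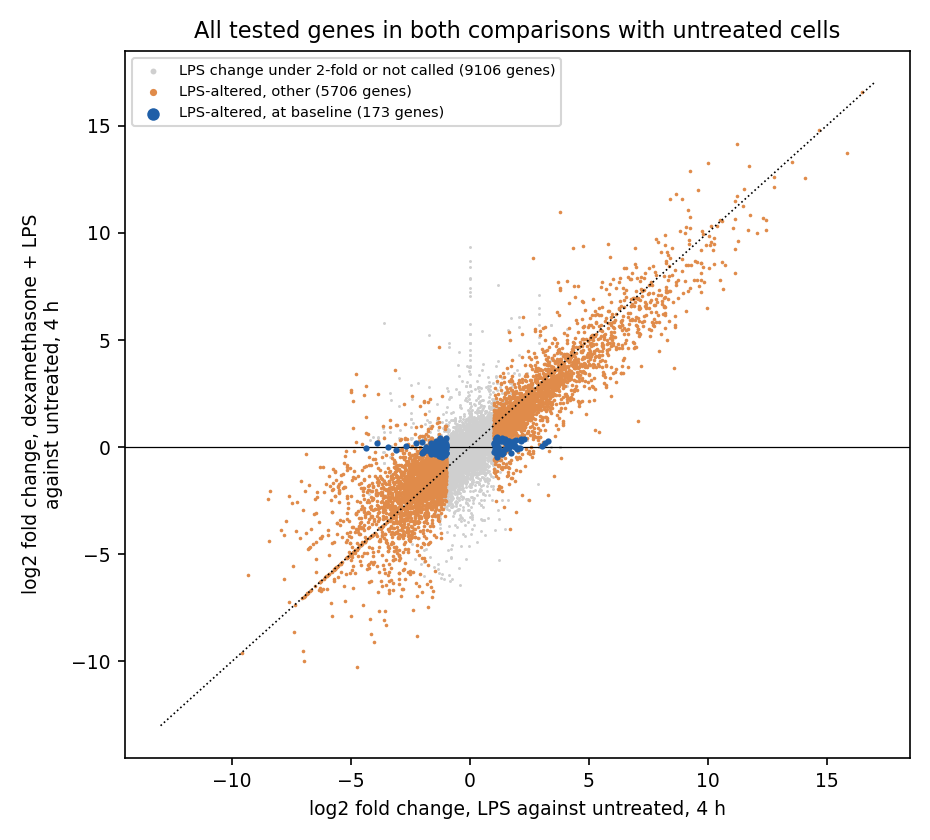
Each point is 1 of the 14985 tested genes, with its log2 fold change in LPS against untreated cells (horizontal axis) and in dexamethasone plus LPS against untreated cells (vertical axis), both at 4 h and both with the same untreated samples. The dotted line marks equal changes, and the 173 LPS-altered genes at baseline lie along 0 on the vertical axis.

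Most LPS-altered genes kept the greater part of their change. The combined log2 fold change was 81.7% of the LPS log2 fold change for the median induced gene (quartiles 61.4 and 99.5%) and 77.4% for the median repressed gene (quartiles 52.1 and 108.1%). Tested directly against LPS alone, 1468 of the 2630 induced genes were called closer to untreated and 351 further from it, where 25.4% of all genes tested were lower and 23.9% higher than in LPS alone. Of the repressed genes, 1292 were closer to untreated and 384 were further from it. Both sets were chosen by their values in the same LPS libraries, which by itself tilts the percentages and these calls toward untreated. The shares over all genes carry no such choice, and the size of the tilt was not tested. Genes with a large LPS response rarely stood at baseline. At baseline were 8 of the 1510 genes that LPS raised at least 4-fold, 3 of the 991 raised at least 8-fold and 0 of the 630 raised at least 16-fold, of which 624 were still 2-fold away. Among repressed genes, 8 of the 1434 lowered at least 4-fold were at baseline.

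**Figure D2:**
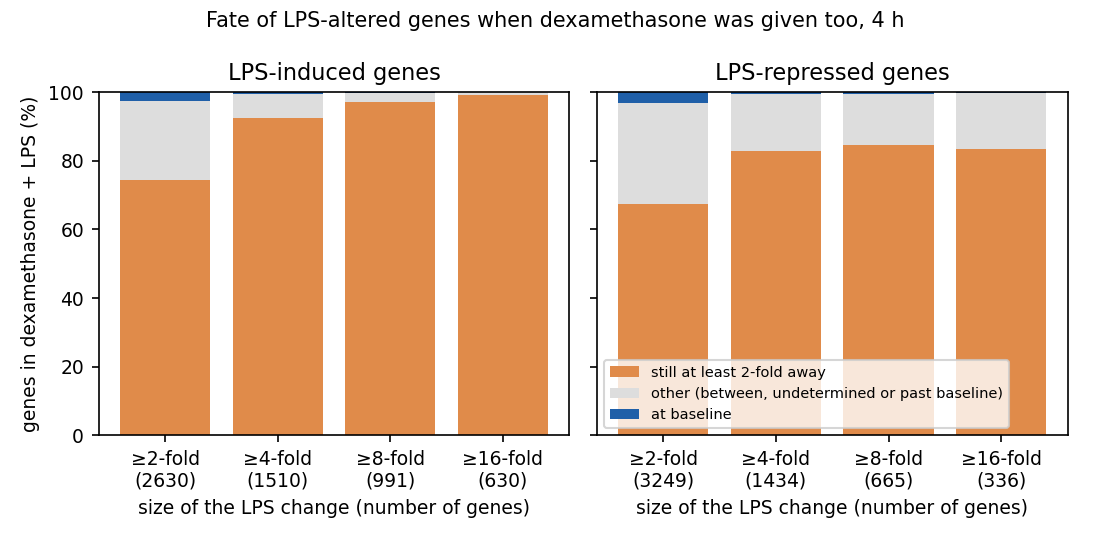
Bars give the share of LPS-induced (left) and LPS-repressed (right) genes that were still at least 2-fold away from untreated on the same side (orange), at baseline (blue), or neither (grey: in between, undetermined or past baseline), in dexamethasone plus LPS at 4 h. Bars run by the least size of the LPS change, with the number of genes in brackets, and the share still away was 74.4% of all induced and 67.3% of all repressed genes.

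Several inflammatory mediators had large rises over untreated levels at or near 0. The 6 given first had the largest fitted log2 fold changes among genes averaging at least 5 CPM, an order that is uncertain where untreated counts are so low. Edn1, the precursor of the vasoconstrictor endothelin 1 (chr13:42454952-42461466 in the table's annotation), had 530.3, 587.1 and 585.7 CPM in treated cells and 0 counts in each untreated library. All treated libraries were far above untreated, at least 14200-fold higher against a floor of 3 counts over the untreated group. Il6, the acute-phase cytokine, had 457.9, 415.3 and 520.1 CPM against 0.0937, 0 and 0 CPM in untreated cells, a ratio of 11700 (95% interval 4010 to 56800, for counting error only). Nos2, which makes nitric oxide in activated macrophages, had 423, 461.7 and 453.5 CPM against 0.0312, 0 and 0.046 CPM, a ratio of 16800 (counting interval 4650 to 139000). Both genes were near 0 counts in every untreated library. Ptx3, a soluble pattern recognition protein, had 288.2, 297.1 and 359.4 CPM against 0, 0.0922 and 0 CPM. Shisa3, which encodes a membrane adaptor, had 561.9, 542.4 and 527.7 CPM against 0, 0.0461 and 0 CPM. Csf3, the granulocyte growth factor G-CSF, had 95.3, 115.4 and 106.9 CPM in treated cells and 0 counts in untreated cells, at least 2650-fold higher. Only genes whose treated and untreated libraries did not overlap could be among these 6, so their separation is part of the choice and not a result. In the LPS-alone libraries Csf3 had 13 to 15.6 CPM, lower than in the combination (log2 fold change of the combination over LPS alone 2.90, adjusted p = 5.8e-19 by edgeR). Ptx3 was likewise higher in the combination than in LPS alone, by a log2 fold change of 3.23 (adjusted p = 5.6e-15 by edgeR). Nos2 was lower in the combination, with a mean of 446 CPM beside 1907 CPM in LPS alone. Mean levels of Il6 were 464.5 and 539.1 CPM, and those of Edn1 567.7 and 540 CPM.

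Of 19 tested cytokine genes, 17 rose and 2 fell, with none at baseline, and their median log2 fold change was 5.58. Over all genes tested 33.7% were higher, 36.5% lower and 23.9% at baseline, and the median was -0.05. Tnf had 1966, 1968 and 2040 CPM in treated cells, against 37, 33.9 and 35.9 CPM in untreated cells, a log2 fold change of 5.80 (SE 0.0813, adjusted p = 8.2e-36). LPS alone gave Tnf a log2 fold change of 5.82, and the combination did not pass the test against it (log2 fold change -0.02, SE 0.0628, adjusted p = 0.83). Il1b, the inflammasome-processed cytokine, had 1839, 1844 and 1775 CPM against 1.59, 0.507 and 1.2 CPM, a log2 fold change of 10.61 (SE 0.148). The mean of Il1b in LPS alone was 6554 CPM. Il10, which restrains inflammation, had 69.5, 70.5 and 90.2 CPM against 7.21, 8.48 and 6.03 CPM (log2 fold change 3.40, SE 0.126), and kept 60.3% of its LPS log2 change. The members that fell were chosen for mention after their values were seen. Osm, which encodes the cytokine oncostatin M, was below untreated by a log2 fold change of -1.71 where LPS alone had raised it by 1.67. Tgfb1 fell by 0.75 on the log2 scale.

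Chemokine genes followed the cytokines, with 19 of 21 higher, 2 lower and a median log2 fold change of 6.69. Among all genes tested 33.7% were higher and 36.5% lower. Cxcl10, the interferon-inducible T cell attractant, had 2980, 3432 and 3387 CPM in treated cells, against 2.65, 4.15 and 2.12 CPM in untreated cells (log2 fold change 10.12, SE 0.181, adjusted p = 1e-20). In LPS alone it had 10090, 10110 and 9138 CPM, so that the treated libraries lay below LPS and far above untreated. Ccl2, the monocyte attractant, had 106.5, 112.2 and 94.4 CPM against 16.6, 14.6 and 16.3 CPM (log2 fold change 2.72, SE 0.218) and kept 61.2% of its LPS log2 change. Cxcl1, a neutrophil attractant, had 891.8, 872.9 and 843.7 CPM in the combination, against 0.499, 0.138 and 0.875 CPM in untreated cells. It was higher in the combination than in LPS alone, by a log2 fold change of 1.48 (adjusted p = 1.3e-11). Ccl17 had 64.9, 56.1 and 57 CPM against 0.0312, 0 and 0 CPM in untreated cells, and 6.74 to 11.1 CPM in LPS alone. None of these 4 chemokine genes had overlapping groups. The share of all genes tested without overlap is not given, so this cannot be set against it.

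All 36 interferon-stimulated genes rose at least 2-fold, with a median log2 fold change of 4.91, where LPS alone gave a median of 6.00. Among all genes tested 16% were at least 2-fold higher. Rsad2, the antiviral radical-SAM enzyme viperin, had 2184, 2793 and 2714 CPM in treated cells and 12.6, 16.8 and 12.1 CPM in untreated cells (log2 fold change 7.54, SE 0.223). Gbp5, a guanylate-binding protein, had 2068, 2342 and 2343 CPM against 1.75, 1.57 and 0.691 CPM (log2 fold change 10.66, SE 0.166). Irf7, the transcription factor that amplifies type I interferon, had 697.5, 762.2 and 894.2 CPM against 47.5, 40.4 and 41.4 CPM (log2 fold change 4.18, SE 0.127). None of these 3 genes had overlapping groups, but the share of all genes tested without overlap is not given. Each was below its level in LPS alone, with log2 fold changes of -2.08, -0.51 and -0.88. The adjusted p-values by edgeR were 5.3e-09, 0.0001 and 8.4e-07.

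The 20 inflammatory effector genes all rose, 19 of them at least 2-fold, with a median log2 fold change of 6.62 beside 6.67 in LPS alone. The shares of all genes tested were 33.7% higher and 16% at least 2-fold higher. Acod1, the itaconate-producing enzyme, had 8303, 8742 and 8951 CPM in treated cells, against 5.74, 1.38 and 2.72 CPM in untreated cells (log2 fold change 11.26, SE 0.269). Saa3, an acute-phase apolipoprotein, had 11730, 11210 and 12820 CPM against 1.37, 1.94 and 0.598 CPM (log2 fold change 13.14, SE 0.241), above the 4169 to 4661 CPM of LPS alone. Ptgs2, the inducible cyclooxygenase that makes prostaglandin precursors, had 865.1, 905.8 and 1030 CPM against 5.74, 3.18 and 3.22 CPM, a log2 fold change of 7.79 (SE 0.164). In LPS alone Ptgs2 stood at 6024 to 6269 CPM, so the combination kept 74.2% of its LPS log2 change. Plaur, the urokinase receptor, was the effector that rose by less than 2-fold, with a log2 fold change of 0.59 beside 2.19 in LPS alone, and was chosen for mention after its value was seen.

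Of 22 genes for NF-kB subunits and its feedback inhibitors, 21 rose and 1 fell, with a median log2 fold change of 3.95 beside 3.99 in LPS alone. Nfkbia, the inhibitor IkB alpha, had 1889, 1924 and 2007 CPM in treated cells, against 84.2, 77.4 and 78.2 CPM in untreated cells (log2 fold change 4.60, SE 0.0636). Socs3, a brake on cytokine receptor signalling, had 1580, 1643 and 1748 CPM against 3.65, 2.31 and 2.03 CPM (log2 fold change 9.22, SE 0.145). Tnfaip3, the ubiquitin-editing enzyme A20, had 2519, 2838 and 2675 CPM against 30.8, 26.7 and 25.2 CPM (log2 fold change 6.60, SE 0.115). All treated libraries of these 3 genes lay above all untreated ones. How many of all genes tested were separated in this way is not given. The gene that fell was Otulin, a linear-ubiquitin protease, with a log2 fold change of -0.50, chosen for mention after its value was seen. In the TLR4 pathway itself 18 of 26 genes rose, 6 fell and 8 were at baseline, beside 33.7%, 36.5% and 23.9% of all genes tested. Tlr4 fell to 25, 24.5 and 27.2 CPM, against 115.9, 112.2 and 109.6 CPM in untreated cells (log2 fold change -2.14, SE 0.0744, adjusted p = 1.2e-24), further than the log2 fold change of -1.24 in LPS alone. Irak3, the inhibitory kinase homologue IRAK-M, had 541.4, 570.1 and 603 CPM against 27.1, 22.7 and 22.8 CPM (log2 fold change 4.55, SE 0.0753). Its exons overlap Tmbim4 on the other strand, and counting used no strand. Irf5 (log2 fold change -0.27) and Ikbkg, the regulatory subunit of the IkB kinase (0.35), were at baseline within 1.5-fold.

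Among genes averaging at least 5 CPM with a gene symbol, the 6 largest falls included receptors and signalling proteins. Plau, the urokinase-type plasminogen activator, had 2.75, 1.15 and 1.27 CPM in treated cells, against 1358, 1303 and 1203 CPM in untreated cells (log2 fold change -9.51, SE 0.373, adjusted p = 7.1e-14). LPS alone and dexamethasone alone also lowered Plau, with log2 fold changes of -7.03 and -4.42. Cd300lb, an activating receptor of myeloid cells, had 0.935, 1.21 and 1.33 CPM against 303.7, 321.8 and 298.4 CPM (log2 fold change -8.05, SE 0.134). In LPS alone Cd300lb stood at 19.8 to 30.5 CPM and in dexamethasone alone at 173.5 to 190 CPM, so the combination lay below either agent. Arl4c, a small GTPase, had 1.25, 1.27 and 2.16 CPM against 250.2, 267.7 and 267.8 CPM (log2 fold change -7.38, SE 0.115). Lpar5, a lysophosphatidic acid receptor, had 0.156, 0 and 0.111 CPM against 14.7, 17.3 and 14 CPM. Sox4, a transcription factor, had 0.052, 0 and 0 CPM against 24.3, 32 and 17.6 CPM, and Fam83f had 0.104, 0 and 0 CPM against 17.7, 17.8 and 15.7 CPM. Groups that did not overlap were a condition of this choice too, so the separation of these 6 genes is not a result.

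Of 28 receptor genes, 13 rose, 12 fell and 2 were at baseline, and of 23 macrophage transcription factors 8 rose, 13 fell and 2 were at baseline. The share that rose among the transcription factors was near the 33.7% of all genes tested, of which 36.5% were lower and 23.9% at baseline. Scaled by library size only, 11 receptors were higher and 15 lower, and 0 of the transcription factors were at baseline. Without treated replicate 2 each list had 1 gene at baseline, as did the transcription factors without treated replicate 3 or untreated replicate 1 or 2. Ccr2, the CCL2 receptor, had 1.97, 2.85 and 2.11 CPM in treated cells against 110.1, 107.3 and 96.5 CPM in untreated cells (log2 fold change -5.51, SE 0.2). Fcgr2b, the inhibitory Fc receptor, had 1369, 1469 and 1390 CPM against 27.4, 16.6 and 25 CPM (log2 fold change 5.92, SE 0.14). Adora2b, an adenosine receptor, rose by a log2 fold change of 5.04 (SE 0.106). Pparg, the lipid-sensing nuclear receptor, fell by 4.64 on the log2 scale (SE 0.121), and Tfec, of the MiT family, rose by 4.43 (SE 0.158). Csf1r, the M-CSF receptor, was at baseline with 2345, 2414 and 2377 CPM against 2720, 2641 and 2751 CPM (log2 fold change -0.18, SE 0.0462), a small called difference within the 1.5-fold bound. Maf was also at baseline, at a log2 fold change of -0.29 beside 1.72 in LPS alone and 1.12 in dexamethasone alone, but lost the call without treated replicate 2 or 3, without untreated replicate 1 or 2, with no filter on low counts and on library size only (log2 fold change -0.84). Csf1r lost it on library size only too.

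**Figure D3:**
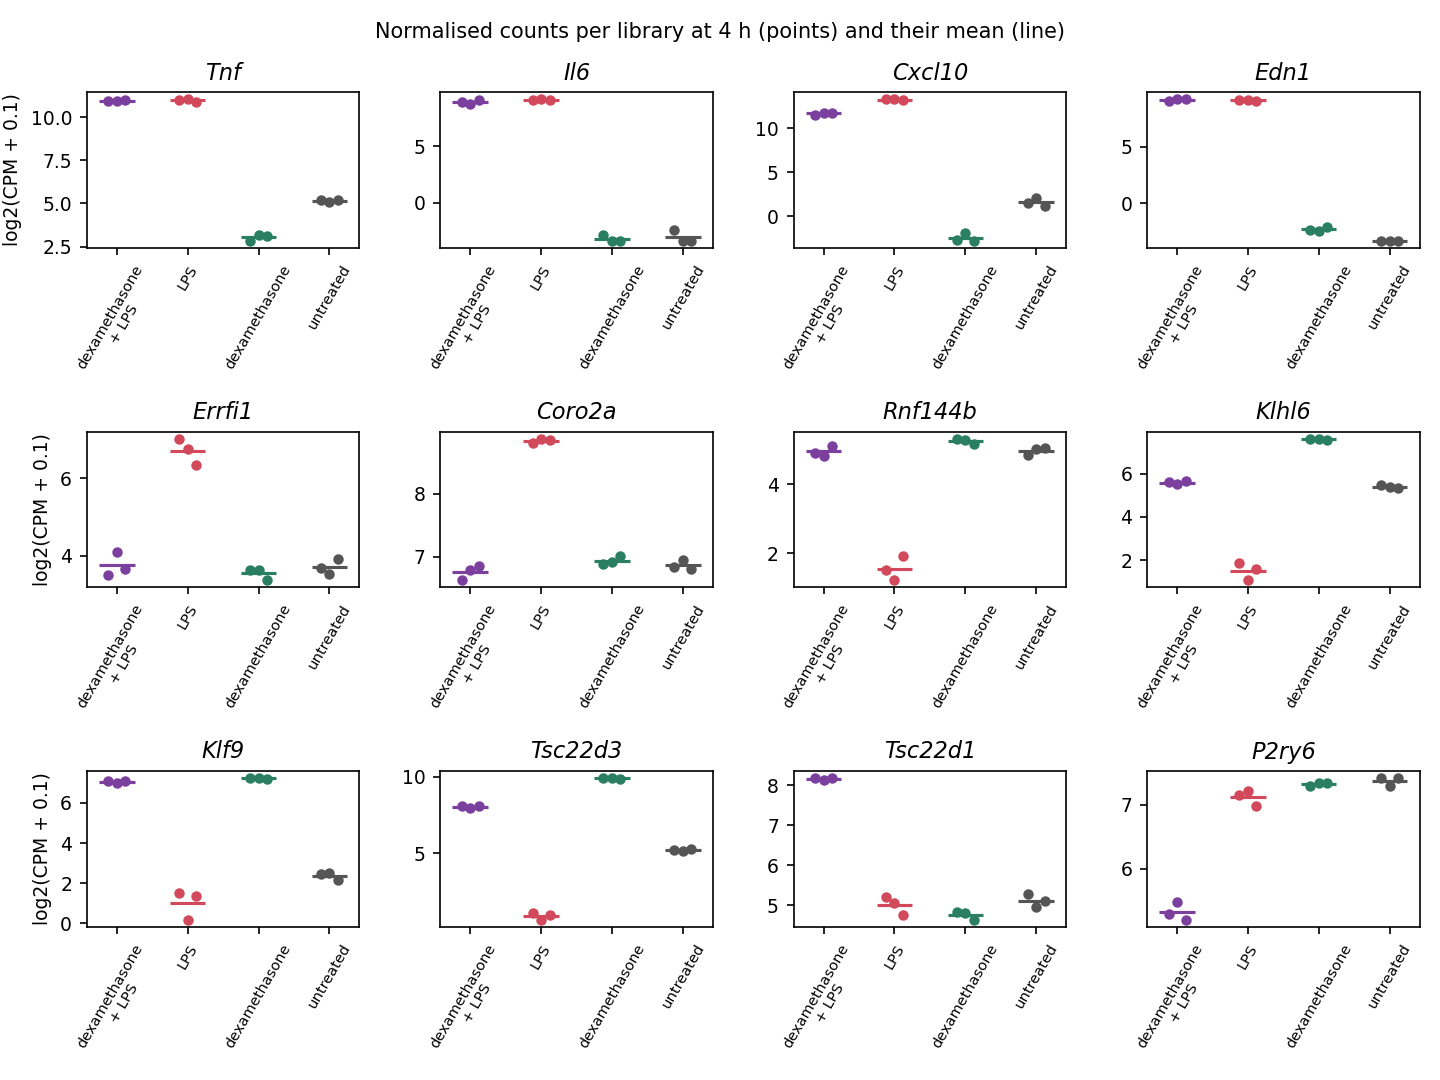
Points are the 3 libraries of each group at 4 h and lines their means, as log2 of CPM plus 0.1, for 12 genes, with dexamethasone plus LPS at the left and untreated cells at the right of each panel. Tnf, Il6, Cxcl10 and Edn1 stay far above untreated, Errfi1, Coro2a, Rnf144b and Klhl6 sit at the untreated level, and Klf9 and Tsc22d3 lie above it although LPS alone lowered them.

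The 66 LPS-induced genes at baseline were of modest LPS response, with a median LPS log2 fold change of 1.38 and a largest of 3.3. Errfi1, an inhibitor of the EGF receptor (chr4:150938376-150953349), had 11.2, 17.1 and 12.4 CPM in dexamethasone plus LPS, against 12.7, 11.4 and 14.9 CPM in untreated cells. The groups overlapped, and the log2 fold change was 0.05 (SE 0.152, adjusted p = 0.0044 for a difference under 1.5-fold). LPS alone had brought Errfi1 to 81.6 to 130.1 CPM, while dexamethasone alone left it at 10.2 to 12.3 CPM. Coro2a, an actin-binding coronin, showed the same order, with 98.9, 110.4 and 116.1 CPM in the combination against 114.4, 124 and 111.4 CPM in untreated cells. Its level was 444.9 to 468.2 CPM in LPS alone and 118.1 to 128.4 CPM in dexamethasone alone. For these genes dexamethasone alone gave log2 fold changes of -0.17 and 0.07.

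Of other induced genes at baseline, Kcna3 and Slamf9 were lower in dexamethasone alone than in untreated cells. Of all 66, 7 were at least 2-fold lower in dexamethasone alone and 31 were at baseline there. Kcna3, a voltage-gated potassium channel, had 8.1, 8.35 and 8.14 CPM in the combination against 7.68, 6.92 and 6.72 CPM in untreated cells, with 58.3 to 68.2 CPM in LPS alone and 1.7 to 2.03 CPM in dexamethasone alone. Slamf9, a surface receptor of the SLAM family, had 34.9, 37.6 and 44.7 CPM against 40, 30.8 and 48.5 CPM, with log2 fold changes of 2.11 in LPS alone and -1.20 in dexamethasone alone. Creb5, a CRE-binding transcription factor, had 29.3, 29.4 and 32 CPM against 24.9, 19.2 and 29.9 CPM. Klf6, a zinc finger transcription factor, and Zyx, the focal adhesion protein zyxin, were within the bound but called slightly higher, with log2 fold changes of 0.37 (SE 0.058) and 0.40 (SE 0.0564) beside 2.27 and 2.16 in LPS alone. Perm1 was at baseline too (log2 fold change -0.06), at 2.72 to 5.54 CPM. Leaving out single samples ended the baseline call of Perm1, Creb5 and Kcna3: Perm1 without any 1 of the treated samples and without untreated replicate 1 or 2, Creb5 without treated replicate 1 or untreated replicate 3, and Kcna3 without untreated replicate 1 (adjusted p = 0.081). Bcl6, a transcriptional repressor listed among glucocorticoid targets, was at baseline with a log2 fold change of -0.26 beside 1.15 in LPS alone. On library size only Klf6, Zyx and Creb5 kept their baseline calls, and Kcna3, Slamf9, Perm1 and Bcl6 lost theirs.

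Promoters of genes from both outcomes are shown because the motifs of the factors downstream of TLR4 can be read in them. They do not stand for their classes, since each motif is absent from most promoters of either outcome. The runs are the 250 bases before the RefSeq start site furthest upstream, from GRCm38.p6, 5′ to 3′ on the gene's strand. Capitals mark matches, on either strand, to a kB motif (GGANTTTCC), an interferon-response core (ISRE, GAAANNGAA), AP-1 (TGANTCA), CRE (TGACGTCA) or a glucocorticoid-response core (GRE, ACANNNTGT). Cxcl10 lies at chr5:92348890-92349139 (minus strand), Il6 at chr5:30012864-30013113 (plus strand) and Nfkbia at chr12:55492648-55492897 (minus strand), and all 3 genes stayed away from baseline. Creb5 at chr6:53287053-53287302 (plus strand) and Zyx at chr6:42349578-42349827 (plus strand) were at baseline.
Cxcl10: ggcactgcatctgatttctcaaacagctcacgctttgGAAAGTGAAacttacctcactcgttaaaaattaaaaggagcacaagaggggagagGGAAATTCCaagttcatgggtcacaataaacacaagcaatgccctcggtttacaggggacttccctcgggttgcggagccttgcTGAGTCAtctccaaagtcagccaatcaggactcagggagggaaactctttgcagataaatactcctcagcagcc
Il6: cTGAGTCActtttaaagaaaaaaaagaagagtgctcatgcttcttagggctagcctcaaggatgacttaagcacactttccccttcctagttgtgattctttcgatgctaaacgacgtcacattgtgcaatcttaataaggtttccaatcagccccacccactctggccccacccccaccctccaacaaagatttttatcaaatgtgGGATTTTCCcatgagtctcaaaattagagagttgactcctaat
Nfkbia: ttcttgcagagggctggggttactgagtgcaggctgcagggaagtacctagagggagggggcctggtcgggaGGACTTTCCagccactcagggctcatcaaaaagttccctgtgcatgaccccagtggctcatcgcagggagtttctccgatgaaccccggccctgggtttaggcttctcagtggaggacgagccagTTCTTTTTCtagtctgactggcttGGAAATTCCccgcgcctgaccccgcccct
Creb5: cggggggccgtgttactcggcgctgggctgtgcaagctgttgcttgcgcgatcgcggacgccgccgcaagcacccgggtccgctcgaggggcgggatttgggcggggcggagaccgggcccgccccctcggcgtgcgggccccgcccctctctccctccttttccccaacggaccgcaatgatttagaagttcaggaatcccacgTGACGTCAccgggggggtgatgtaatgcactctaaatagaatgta
Zyx: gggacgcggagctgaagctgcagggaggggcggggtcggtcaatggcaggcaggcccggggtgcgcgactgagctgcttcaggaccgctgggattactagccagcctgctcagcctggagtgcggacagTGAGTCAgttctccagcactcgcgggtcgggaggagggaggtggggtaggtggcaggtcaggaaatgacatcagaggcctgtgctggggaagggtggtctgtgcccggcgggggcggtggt
In Cxcl10 the ISRE match spans bases -213 to -205, the kB match -158 to -150 and the AP-1 match -74 to -68, counted from the start site. Il6 holds an AP-1 match at -249 to -243 and a kB match at -43 to -35, and Nfkbia holds 2 kB matches, at -178 to -170 and -29 to -21, and an ISRE match at -53 to -45. Creb5 holds a CRE at -45 to -38 and Zyx an AP-1 match at -121 to -115, with no overlap between motifs in any of the 5. Of the 1958 LPS-induced genes still 2-fold higher, 1366 had a promoter in the table, and 40 of these (2.93%) held the kB motif, against 1 of 51 (1.96%) of those at baseline. Over the 10290 tested genes with a promoter the share was 1.12%, and over all 27025 promoters 1.04%. The ISRE core was in 12.2% of promoters of genes still higher and in 7.84% (4 of 51) of those at baseline, beside 6.57% of tested genes and 7.16% of all promoters. AP-1 was in 7.32% and 1.96%, beside 4.48% and 6.85%, CRE in 1.9% and 3.92%, beside 2.67% and 1.6%, and the GRE core in 3.59% and 1.96%, beside 3.71% and 5.88%. Among the 51 promoters at baseline, Zyx was the 1 with AP-1 and Creb5 was 1 of the 2 with CRE. A match is a run of letters and not a measured binding site, and no test was made of these shares.

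The 107 LPS-repressed genes at baseline had a median LPS log2 fold change of -1.26. Klhl6, a substrate adaptor of a ubiquitin ligase (chr16:19765246-19801787), had 48.7, 46 and 50.4 CPM in dexamethasone plus LPS, against 44.9, 41.6 and 40.1 CPM in untreated cells. LPS alone had lowered it to 2 to 3.5 CPM, and dexamethasone alone had raised it to 190.5 to 198.4 CPM. The treated libraries lay just above the untreated ones, with a log2 fold change of 0.19 (SE 0.0872, adjusted p = 0.00038 for a difference under 1.5-fold). Rnf144b, a ubiquitin ligase, had 30.2, 28.5 and 34.9 CPM in the combination against 28.6, 32.7 and 33.3 CPM in untreated cells, and 2.23 to 3.69 CPM in LPS alone. Here dexamethasone alone gave a log2 fold change of only 0.29, within the 1.5-fold bound. Plxna2, a semaphorin receptor, had 30.2, 37 and 27.9 CPM against 36.7, 33.2 and 34.2 CPM (log2 fold change -0.14, SE 0.104), beside -3.08 in LPS alone. Ccnf, which encodes cyclin F, had 41.8, 36.4 and 36 CPM against 40.2, 45.9 and 45.9 CPM (log2 fold change -0.20, SE 0.0857), and D10Wsu102e had 50.2, 52.4 and 37.6 CPM against 55 to 58 CPM. Avpi1 was at baseline at a log2 fold change of 0.21, a call lost without treated replicate 2 or 3 or untreated replicate 2. On library size only Klhl6 kept its baseline call, and Rnf144b, Plxna2, Avpi1, D10Wsu102e and Ccnf lost theirs.

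At baseline were 4 of 8 LPS-repressed genes of cholesterol synthesis and 3 of 19 of the cell cycle, beside 3.29% of all LPS-repressed genes. Of all genes tested, 33.7% were higher, 36.5% lower and 23.9% at baseline. Of 24 tested genes of cholesterol synthesis, 13 rose, 5 fell and 8 were at baseline (6 higher and 11 lower on library size only), and 4 of the 8 LPS-repressed members were at baseline. The list's median log2 fold change was 0.31 beside -0.56 in LPS alone, and it was -0.23 on library size only, so its direction depends on the scaling. Msmo1, a sterol C4 oxidase, had 170.4, 198.5 and 156.5 CPM in treated cells, against 194.4, 192.3 and 179.6 CPM in untreated cells (log2 fold change -0.11, SE 0.115), and 47.1 to 55.6 CPM in LPS alone. Sqle, squalene epoxidase, had 125.6, 151.8 and 113.1 CPM against 161.3, 139.9 and 141.8 CPM (log2 fold change -0.18, SE 0.137), a call lost without treated replicate 2, without untreated replicate 2 or 3, with no filter and on library size only. Stard4, a sterol carrier, had 79.5, 100.9 and 70.3 CPM against 69.5, 76.2 and 69.3 CPM (log2 fold change 0.22, SE 0.113), and its baseline call was lost without treated replicate 1 or 3 and on library size only. Msmo1 lost its call on library size only. Mvd, of the mevalonate pathway, rose by 1.15 (SE 0.0917) where LPS alone gave -1.29, and Dhcr7, the last reductase of the pathway, stayed low at -2.01 (SE 0.137).

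Among 30 genes of the cell cycle and DNA replication, 5 rose, 19 fell and 9 were at baseline. Their median log2 fold change was -1.10 beside -1.34 in LPS alone. The shares of all genes tested were 33.7% higher, 36.5% lower and 23.9% at baseline. The 15 genes that fell at least 2-fold included those of entry into and licensing of S phase. Ccnd1, cyclin D1, fell to 9.66, 13.4 and 7.7 CPM, against 440, 389.9 and 440.2 CPM in untreated cells (log2 fold change -5.38, SE 0.154). E2f2 fell by 4.06 (SE 0.133) and Cdc6, which loads the replicative helicase, by 4.43 (SE 0.276) on the log2 scale. All 6 Mcm helicase genes of the list fell, with log2 fold changes of -3.46 to -1.92. Genes of G2 and mitosis varied. Ccna2, cyclin A2, had 93.7, 73.9 and 69.8 CPM in treated cells against 72.4, 96.5 and 75.8 CPM in untreated cells, at baseline with a log2 fold change of -0.04 beside -1.35 in LPS alone. Cdk1 had a log2 fold change of 0.02 beside -0.59 in LPS alone, Cdc20 0.09 beside -1.18, Plk1 0.23 beside -0.79 and Top2a 0.24 beside -0.56, all at baseline. Ccna2 and Cdc20 count as LPS-repressed by the 2-fold rule, while Cdk1, Plk1 and Top2a do not. Of other mitotic genes Ccnb1, Mki67 and Aurka rose, by 0.81, 0.57 and 0.39, and Bub1 fell by 0.46. In the whole list 1 gene rose on library size only, 27 fell and 5 were at baseline, and Ccna2 lost its call. Without treated replicate 1 or untreated replicate 1, 3 genes of the list rose. Apart from Top2a, these genes and the Mcm set were chosen for mention after their values were seen.

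Some genes passed baseline and stood on the other side of it. Of the 29 LPS-repressed genes that were at least 2-fold above untreated, 5 are described here, each also raised by dexamethasone alone. Mvd, among the cholesterol genes above, was not, with a log2 fold change of -0.14 in dexamethasone alone. Klf9, a zinc finger transcription factor induced by glucocorticoids, had 136.7, 125.6 and 136 CPM in the combination, against 5.4, 5.58 and 4.33 CPM in untreated cells (log2 fold change 4.69, SE 0.1). LPS alone lowered it to 1.03 to 2.77 CPM and dexamethasone alone raised it to 148.5 to 151.3 CPM, so the combination lay close to dexamethasone alone. Tsc22d3, the anti-inflammatory leucine zipper GILZ, had 274.9, 251.4 and 279.9 CPM against 37, 35.8 and 38.8 CPM (log2 fold change 2.85, SE 0.0663). It reached 942.2 to 973.7 CPM in dexamethasone alone and 1.48 to 2.04 CPM in LPS alone, so the combination fell between them. Tns1, an integrin-linked tensin, rose by 3.61 (SE 0.127) and Sik1, a salt-inducible kinase, by 2.40 (SE 0.0834), beside -3.15 and -2.42 in LPS alone. Sik1 was higher in the combination than in either single treatment, with 87.2 to 95.9 CPM against 50.3 to 56.4 CPM in dexamethasone alone. Ctla2b rose by 2.40 (SE 0.233), and as a member of a family of near-identical genes its counts are uncertain. On the other side, 17 LPS-induced genes were at least 2-fold below untreated.

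Of 25 tested genes known as glucocorticoid targets, 18 rose, 6 fell and 2 were at baseline. Their median log2 fold change was 2.47 beside 0.57 in LPS alone and 2.33 in dexamethasone alone. Over all genes tested 33.7% were higher, 36.5% lower and 23.9% at baseline, and the median was -0.05. Fkbp5, a co-chaperone of the receptor, had 532, 514.2 and 546.7 CPM in the combination against 51.9, 52.4 and 52.9 CPM in untreated cells (log2 fold change 3.34, SE 0.0669), below the 1477 to 1486 CPM of dexamethasone alone. Per1, a clock repressor, had 117.1, 114.5 and 115.4 CPM against 27.3, 27.6 and 24.8 CPM (log2 fold change 2.12, SE 0.0671). Cd163, the haemoglobin scavenger receptor, had 33.9, 42 and 33.3 CPM against 18, 16.1 and 20.1 CPM (log2 fold change 1.01, SE 0.0899), far below the 164.7 to 179.4 CPM of dexamethasone alone. Dusp1, a MAP kinase phosphatase, rose by 4.20 (SE 0.0773), and LPS alone and dexamethasone alone each raised it as well, by 4.03 and 2.47. Its exons overlap Ergic1 on the other strand. Mt2, a metallothionein, had 26.4, 20.5 and 24.8 CPM in the combination and 0 counts in untreated cells, at least 605-fold higher, and Hif3a had 11, 10.7 and 13.4 CPM and was at least 294-fold higher. Fpr1, a formyl peptide receptor, rose by 6.81 (SE 0.168). The 4 targets that fell at least 2-fold were Zbtb16, Rgs2, Sesn1 and Angptl4, which LPS alone lowered too. The log2 fold change was -2.42 for Zbtb16, -6.76 for Rgs2 and -4.15 for Sesn1, beside -8.47, -3.88 and -5.06 in LPS alone. Angptl4 had 0 counts in the combination, at most 0.00789 of its level of 6.17 to 8.81 CPM in untreated cells. In dexamethasone alone the mean of Zbtb16 was 106.4 CPM, above its 8.87 CPM in untreated cells. Rgs2 and Angptl4 were lower there, at 101.3 and 0.718 CPM against 284.5 and 7.16 CPM, and Sesn1 had 122 against 129 CPM. These 4 were chosen for mention after their values were seen. Nr3c1, the receptor gene itself, had 311, 351.4 and 348.2 CPM against 105.8, 94.5 and 96.2 CPM (log2 fold change 1.77, SE 0.0575).

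Of 17 tested clock genes, 9 rose, 8 fell and 0 were at baseline, beside 33.7%, 36.5% and 23.9% of all genes tested. Cry1, a clock repressor, had 66.4, 62.9 and 58.6 CPM in treated cells against 10.2, 8.76 and 11.2 CPM in untreated cells (log2 fold change 2.64, SE 0.116). Nr1d2, the nuclear receptor REV-ERB beta, fell to 3.74, 2.24 and 4.65 CPM, against 32.4, 30.7 and 31.2 CPM in untreated cells (log2 fold change -3.13, SE 0.122). Bhlhe41 fell by 3.18 (SE 0.125). The list's median of 0.50 compared with -1.49 in LPS alone, and turned to -0.05 on library size only.

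Of 32 genes of the pyruvate dehydrogenase complex and citrate cycle, 23 were at baseline, 13 rose and 9 fell, categories that overlap because small differences can be called inside the bound. Scaling by library size only put 10 at baseline, 3 higher and 26 lower. For this list and the next, the shares of all genes tested were 23.9% at baseline, 33.7% higher and 36.5% lower. Sdha, a succinate dehydrogenase subunit, had 247.7, 245.6 and 242.2 CPM in treated cells against 231.5, 243.6 and 222.1 CPM in untreated cells (log2 fold change 0.08, SE 0.0468). Pdp1, the phosphatase that activates pyruvate dehydrogenase, fell by 2.86 (SE 0.123), and Dld rose by 1.43 (SE 0.0489). Of 22 glycolysis genes 9 were at baseline, 11 rose and 6 fell, with a median of 0.14 beside 0.68 in LPS alone. The median was -0.41 on library size only, with 5 at baseline, 6 higher and 13 lower. Pfkfb3, which makes the activator of phosphofructokinase, had 2395, 2835 and 2744 CPM against 29.7, 31.5 and 30 CPM (log2 fold change 6.45, SE 0.0866). Hk2, hexokinase 2, had 140.4, 165.5 and 165.6 CPM against 55.8, 54 and 58.7 CPM (log2 fold change 1.48, SE 0.0724), and kept 57.6% of its LPS log2 change. Hif1a, the factor that drives glycolysis genes under LPS, had 357.6, 372.6 and 343.1 CPM against 141, 123.6 and 136 CPM (log2 fold change 1.42, SE 0.0619). Ldha rose by 0.62 (SE 0.0558), a call lost on library size only (log2 fold change 0.07). Gapdh and Pkm were at baseline, at log2 fold changes of 0.20 and -0.39.

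**Figure D4:**
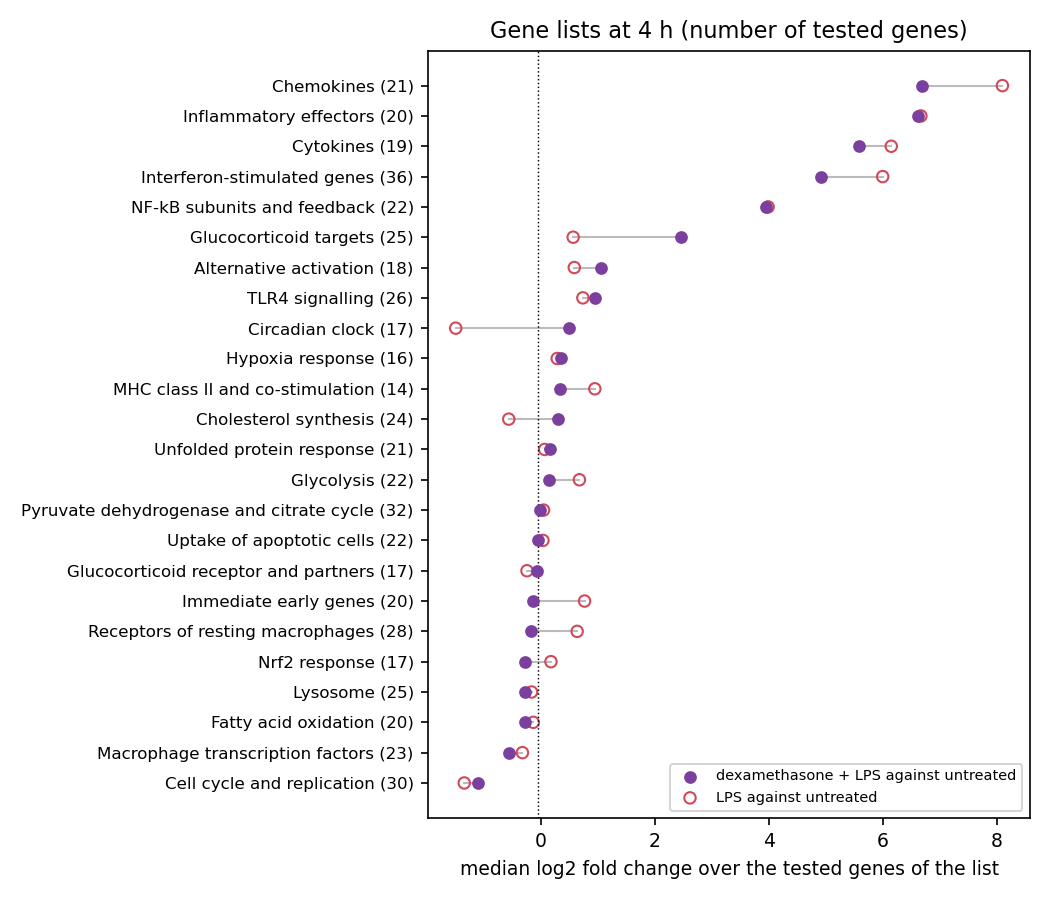
Filled points give the median log2 fold change of each gene list in dexamethasone plus LPS against untreated cells and open points the same in LPS against untreated cells, at 4 h and with the same untreated samples. The dotted line is the median of all genes tested, -0.05, and the number of tested genes is in brackets, with chemokines highest at 6.69 and cell cycle genes lowest at -1.10.

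Immediate early genes, which growth and stress signals switch on within minutes, numbered 20, of which 7 rose, 9 fell and 4 were at baseline, shares near the 33.7% higher, 36.5% lower and 23.9% at baseline among all genes tested. With library size only, 6 rose, 13 fell and 1 was at baseline. Nr4a3, an orphan nuclear receptor, had 11.8, 11.5 and 12.4 CPM in treated cells against 0.843, 1.25 and 0.506 CPM in untreated cells (log2 fold change 3.78, SE 0.254). Ier3 and Maff rose by 3.48 (SE 0.106) and 3.05 (SE 0.131), and Ier5 was at baseline with a log2 fold change of 0.09, a call lost on library size only. Among the 9 that fell, Fos and Myc had log2 fold changes of -2.82 and -1.99. Fosb and Egr3, with means of 5.46 and 7.21 CPM in untreated cells, had -6.48 and -4.25. These falls were chosen for mention after their values were seen. The median of the list was -0.13 beside 0.77 in LPS alone.

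Of 14 genes for class II presentation and co-stimulation 7 rose, 1 fell and 3 were at baseline, with a median log2 fold change of 0.34. The median was -0.21 on library size only, with 6 higher, 5 lower and 1 at baseline. For this list and the 2 below, the shares of all genes tested were 33.7% higher, 36.5% lower and 23.9% at baseline. Without treated replicate 1 or 3 or untreated replicate 2, and without dexamethasone replicate 2, 2 genes were lower. Cd40, the co-stimulatory receptor, had 978.6, 955.1 and 1069 CPM in treated cells against 9.43, 8.12 and 9.71 CPM in untreated cells (log2 fold change 6.78, SE 0.0978). Cd274, the checkpoint ligand PD-L1, rose by 5.90 (SE 0.0906) and Icosl, the ICOS ligand, by 4.47 (SE 0.105), with Icosl at 455.3 to 473.8 CPM in the combination and 160.6 to 204.1 CPM in LPS alone. H2-Aa, a class II chain, had 141.5, 118.4 and 172.6 CPM against 157.3, 119.1 and 157.8 CPM, overlapping groups with a log2 fold change of -0.01 (SE 0.16), and H2-Eb1 was at baseline too. Both lost that call on library size only. Of other class II genes, chosen for mention after their values were seen, H2-Ab1 rose by 0.47, H2-DMa fell by 0.37 and Cd74 was undetermined (log2 fold change 0.20). Of 22 genes for uptake of dying cells, 9 rose, 8 fell and 6 were at baseline, against 5 higher and 14 lower on library size only. Mertk, a receptor for apoptotic cells, had 57.2, 65.4 and 65.4 CPM against 28.3, 20.5 and 24.4 CPM (log2 fold change 1.35, SE 0.105), below the 224 to 240.2 CPM of dexamethasone alone. Gas6, its ligand, fell by 2.62 (SE 0.102), and Itgav, an integrin, was at baseline (log2 fold change 0.02), a call lost on library size only. Of 18 alternative activation genes 10 rose, 1 fell and 2 were at baseline, with a median of 1.05. With library size only, 8 rose, 5 fell and 0 were at baseline, and without treated replicate 2 or untreated replicate 2 the numbers lower and at baseline were 3 and 1. Without any 1 of the LPS replicates 2 were lower. Ccl22 rose by 3.47 (SE 0.214).

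Stress and organelle lists held genes of both outcomes. Among all genes tested 33.7% were higher, 36.5% lower and 23.9% at baseline, and no list was tested against these shares. Slc7a11, the cystine transporter of the Nrf2 response, had 955.3, 1028 and 1006 CPM in treated cells against 4.21, 3.41 and 5.02 CPM in untreated cells (log2 fold change 7.88, SE 0.244), above the 327.7 to 355.8 CPM of LPS alone. Of the 17 Nrf2 genes 8 rose, 9 fell and 4 were at baseline. Of 16 hypoxia genes 8 rose, 6 fell and 2 were at baseline, against 5 higher and 8 lower on library size only, and Vegfa fell by 2.51 (SE 0.124). Of 21 genes of the unfolded protein response 11 rose, 7 fell and 10 were at baseline, against 4 higher and 14 lower on library size only, with Hspa5, the chaperone BiP, higher by 1.51 (SE 0.0496). Of 25 lysosome genes 8 rose, 17 fell and 13 were at baseline, against 1 higher, 21 lower and 7 at baseline on library size only. Lipa, the lysosomal acid lipase, fell to 268.8, 300.4 and 242 CPM against 1516, 1540 and 1392 CPM (log2 fold change -2.46, SE 0.0814). Of 20 fatty acid oxidation genes 6 rose, 10 fell and 7 were at baseline, against 3 higher and 15 lower on library size only, with Eci2 higher by 3.00 (SE 0.0896) and Acadm lower at -1.30 (SE 0.0606). Of 17 genes for the glucocorticoid receptor and its partners 8 rose, 7 fell and 6 were at baseline, against 4 higher and 11 lower on library size only. Stip1, a co-chaperone, rose by 1.81 (SE 0.0532), and the chaperones Hsp90ab1 and Hsp90aa1 were at baseline, at log2 fold changes of 0.26 and 0.24.

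A further group stood away from baseline although LPS alone left it there. LPS alone kept 20.5% of all genes tested within 1.5-fold of untreated, and dexamethasone alone kept 47.3%, with 4.98% at least 2-fold higher and 5.61% at least 2-fold lower. Of the 3065 genes at baseline in LPS alone, 44 were at least 2-fold higher and 59 at least 2-fold lower in the combination. The shares of all genes tested were 16% and 19.2%. Dexamethasone alone moved 12 of the 44 and 21 of the 59 at least 2-fold the same way. Rnf103, a ubiquitin ligase of the endoplasmic reticulum, had 496.3, 495.4 and 471.7 CPM in the combination against 47.3, 46.3 and 47.8 CPM in untreated cells (log2 fold change 3.37, SE 0.0651). It had 55.2 to 66.8 CPM in LPS alone and 91.3 to 99 CPM in dexamethasone alone. Rhob, a stress-responsive small GTPase, showed the same order, with 684.2, 677.4 and 658.2 CPM in the combination, 75 to 114.4 CPM in LPS alone, 167.4 to 195.5 CPM in dexamethasone alone and 68.7 to 87.2 CPM in untreated cells. Cep85, a centrosomal protein gene, had 697.3 to 698.2 CPM in the combination, close to the 560.5 to 585.4 CPM of dexamethasone alone, against 86.9 to 101.2 CPM in untreated cells. Rmnd5a, of a ubiquitin ligase complex, rose by 2.19 (SE 0.056). On the low side Basp1, a membrane-bound signalling protein gene, had 27.7, 25.1 and 25.6 CPM in the combination against 244.6, 250.1 and 263.3 CPM in untreated cells, and 36 to 38.1 CPM in dexamethasone alone. Neurl3, Rhoh and Irf2bpl fell by 2.44, 2.44 and 2.40 on the log2 scale. Zc3h12d, an mRNA-decay regulator, fell to 8.68, 7.93 and 8.7 CPM, against 48.5, 55.5 and 46.8 CPM in untreated cells and 33.7 to 37.1 CPM in dexamethasone alone.

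For 16 genes that were higher and 21 that were lower, both single treatments were at baseline and only the combination was 2-fold away. Tsc22d1, a leucine zipper protein of the GILZ family (chr14:76652401-76745205), had 290.7, 282.2 and 290.7 CPM in the combination, 26.8 to 36.9 CPM in LPS alone, 24.8 to 28.5 CPM in dexamethasone alone and 38.7, 31 and 34.3 CPM in untreated cells. Its log2 fold change was 3.05 (SE 0.0844, adjusted p = 4.2e-26), and no library of the other groups came near the combined ones. Dbt, a subunit of the branched-chain keto acid dehydrogenase, had 68.9, 70.3 and 76.8 CPM against 21.3, 21.1 and 21.5 CPM (log2 fold change 1.76, SE 0.0718). Plekhm3 and Plxna1 rose by 1.70 (SE 0.0677) and 1.62 (SE 0.1). On the low side P2ry6, the UDP receptor, had 39.1, 44.7 and 36.8 CPM in the combination against 170.7, 157.6 and 170.8 CPM in untreated cells, with 126.7 to 148.8 CPM in LPS alone and 157.2 to 162.7 CPM in dexamethasone alone. Cpt1a, the gate of mitochondrial fatty acid oxidation, had 32.1, 35.1 and 39.2 CPM against 104, 98.5 and 102.5 CPM (log2 fold change -1.52, SE 0.0684). Fam217b and Fgd6, which encodes an exchange factor for small GTPases, fell by 1.67 (SE 0.133) and 1.62 (SE 0.0963). These counts depend on the thresholds: with the bound for baseline at 1.3-fold, 1 gene was higher and 4 were lower, and with away counted from 1.5-fold 100 were higher and 78 lower. Without LPS replicate 1, 13 were lower.

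**Figure D5:**
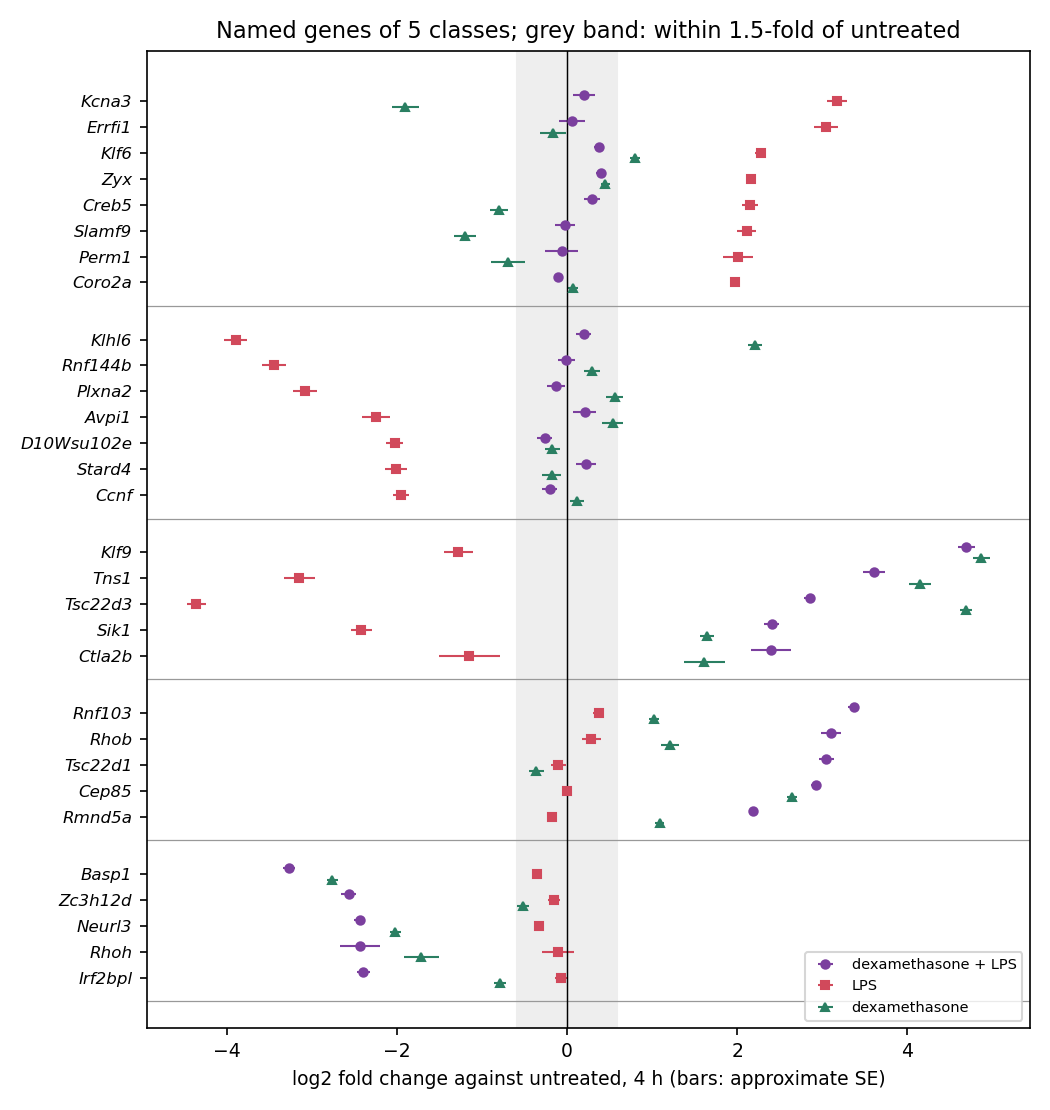
Log2 fold changes against untreated cells at 4 h, with approximate standard errors, of named genes in dexamethasone plus LPS (circles), LPS (squares) and dexamethasone (triangles). From the top, the blocks are LPS-induced genes at baseline, LPS-repressed genes at baseline, LPS-repressed genes above baseline, and genes higher and lower in the combination with LPS alone at baseline, and the grey band marks 1.5-fold.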

How the data were processed

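RNA-seq of 24 libraries was analysed, 3 for each of 4 treatments at 4 h and 24 h. The deposited table holds raw counts per gene and a gene length column, which the authors made with featureCounts 2.0.0 on the GENCODE M29 annotation, per the file headers. The submitters' processing notes list STAR, featureCounts and the builds GRCm38 and mm10. Since M29 is an annotation of a later build, the build of the printed gene positions is uncertain. Symbols matched 52081 of 55357 identifiers, through GENCODE M21 names. Promoter sequences come from RefSeq on GRCm38.p6.

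Counts were fitted with edgeR 4.0.16 (R 4.3.3, limma 3.58.1) by robust quasi-likelihood with TMM scaling and group means over all 24 libraries (16 residual degrees of freedom), after filterByExpr left 14985 genes. Benjamini-Hochberg adjusted p-values under 0.05 were called, 2-fold or more counted as away, and baseline needed 2 one-sided tests against 1.5-fold. Standard errors are approximate, and a floor of 3 counts over the group was used where a group was at 0. CPM divide a gene's counts by the TMM-scaled library total, times 1e6. Alternatives were library size only, DESeq2 1.42.0 (test and size factors), no filter, 4 h libraries alone, other bounds, a replicate block and each replicate left out.

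Same-numbered treated and untreated libraries did not deviate together (Pearson r across genes -0.039, 0 and 0.028), so numbers were not taken as pairs. Reads were counted without strand, so genes that overlap another, such as Dusp1, Irak3, Irf7, Irf5, Csf1r, Shisa3, Ccna2 and Gapdh, are less certain. The script was tested on simulated data. Named were a panel of marker genes, the 6 largest rises and falls, the largest members of each outcome class at 5 CPM or more, and up to 3 changed and 2 baseline genes of each list. The 6 rises and 6 falls were taken only among genes whose treated and untreated libraries did not overlap. The genes compared, lists and tests were chosen with earlier results of these data known. Some genes that this rule names are not reported here.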

Additional observations from a re-analysis of the deposited data

Results flagged for a closer look

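The fold change of dexamethasone plus LPS over untreated cells was also compared between 24 h and 4 h, with 3 samples a group at each time, by an interaction contrast in the edgeR fit. For 18 of the 22 panel genes the log2 fold change at 24 h minus that at 4 h passed an adjusted p of 0.05. The share of all genes tested that passed is not given, so this count cannot be set against it. Il6 (-3.2), Nos2 (-5.32), Csf3 (-6.92) and Hk2 (-0.2) did not pass. Of these, Il6, Nos2 and Csf3 had untreated counts at or near 0 at 4 h. Among inflammatory genes the difference was -5.94 for Tnf, -3.91 for Il1b, -4.84 for Il10, -11 for Cxcl10 and -7.15 for Ccl2. It was -2.24 for Acod1, -5.48 for Ptgs2 and -1.8 for Nfkbia. Among glucocorticoid-responsive genes it was 2.55 for Fkbp5, 1.18 for Cd163, -0.68 for Dusp1, -0.3 for Tsc22d3 and -0.3 for Per1. It was 1.68 for Tlr4, 0.41 for Csf1r, 0.31 for Ldha, -0.45 for Hif1a and -1.2 for Nr3c1. On library size only the differences of Tsc22d3 and Per1 were 0.08 and 0.08 and that of Hif1a was -0.07, and none of these 3 passed the test. Untreated samples were separate at each time. The cause of these differences was not tested.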

How the results depend on the processing

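The 4 h libraries alone, DESeq2 size factors and the DESeq2 test each kept 173 of 174 calls on named genes, no filter kept 170 and library size only 137. On library size only, 2710 genes were higher and 8905 lower, 4888 were at least 2-fold lower, 41 LPS-induced genes were at baseline, 5 were at least 2-fold lower, 4327 LPS-repressed genes were still lower and 12 genes were lower with both single treatments at baseline. Kdr turned to -0.08, and the time differences of Tsc22d3 and Per1, an alternative chosen after seeing the data, to 0.08 and 0.08. The cause was not tested. With a baseline bound of 1.3-fold, 1538 genes were at baseline, 16 of them LPS-induced and 20 LPS-repressed, 9 were higher and 17 lower with LPS alone at baseline, and 1 was higher and 4 lower with both single treatments there. With away counted from 1.5-fold, 28 LPS-induced genes were lower, 168 were higher and 182 lower with LPS alone at baseline, and 100 were higher and 78 lower with both there.

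Leaving out 1 replicate gave 4870 to 5123 genes higher, 5255 to 5559 lower and 3268 to 3612 at baseline. It gave 56 to 72 LPS-induced and 74 to 118 LPS-repressed genes at baseline, 11 to 18 LPS-induced genes at least 2-fold lower and 13 to 24 lower with both single treatments at baseline, with the lowest counts of the last pair, 11 and 13, without LPS replicate 1. The replicate block, for numbers that do not pair the samples, gave 5029 higher and 5426 lower and changed no call on a named gene. The 2784 genes that were neither called nor at baseline had a median of 0.383 CPM.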
